A study of Homo sapiens with 4 samples.

Results

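The subject here is 10 genes that encode receptor tyrosine kinases: AXL, EGFR, ERBB2, ERBB3, MET, MST1R, FGFR2, FGFR3, FGFR4 and EPHA2. They were picked by name out of 57746 genes listed, with their values in these libraries already known, AXL and FGFR3 for how far they differ between lines. Their levels and differences are therefore given as a description, without a test. RNA was sequenced from 4 lines of a human colorectal cancer cell line, with 1 library per line. DLD1 is the parental line and is labelled epithelial. SA was raised from colonies in soft agar and SPH from colonospheres, which are floating colonies of colon cells, and both are labelled mesenchymal. METS, labelled epithelial again, came out of a lung metastasis that a xenograft had formed. All 4 lines were grown in the same serum medium, and neither the host of the xenograft nor the clonality of the derived lines is given in the sources used here. The title of the series sets the lines along the transition between epithelial and mesenchymal states in metastasis.

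Receptor tyrosine kinases span the membrane with a ligand-binding outer part and a kinase inside the cell. Binding of a ligand brings receptors together, they phosphorylate each other on tyrosine, and adaptor proteins such as GRB2 and SHC1 dock there and pass the signal to the RAS-ERK and PI3K pathways. In the gut epithelium the ERBB receptors and MET are known for their part in growth and repair of the crypt, EPHA2 for contact between cells, and AXL is widely used as a marker of cells in a mesenchymal state. Levels are in RPKM, read counts divided by library size and by gene length, so that receptors can be set in order by level within a line. Where 4 values follow each other, they stand in the order DLD1, SA, SPH, METS. Log2 folds are differences of log2(RPKM + 1), which understate the change of genes with low values.

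The DNA before the start of transcription is shown for AXL and MET, the receptors higher in both mesenchymal lines than in both epithelial ones. It is also shown for FGFR3 and EPHA2, which had the most negative class differences (mesenchymal minus epithelial) among the members. Each run is the 250 bases before the start in the RefSeq table of build GRCh38.p14, at chr19:41218973-41219222 on the plus strand for AXL (the more upstream of 2 starts), chr7:116671946-116672195 on the plus strand for MET, chr4:1793043-1793292 on the plus strand for FGFR3 and chr1:16156070-16156319 on the minus strand for EPHA2. Windows were found for 9 of the 10 members, with none for ERBB3. Capitals mark matches on either strand to the GC box GGGCGG, the AP-1 element TGANTCA, the E-box CAGGTG and the TEAD element GGAATG, which neither overlap each other in these 4 runs nor show that a factor binds.
AXL: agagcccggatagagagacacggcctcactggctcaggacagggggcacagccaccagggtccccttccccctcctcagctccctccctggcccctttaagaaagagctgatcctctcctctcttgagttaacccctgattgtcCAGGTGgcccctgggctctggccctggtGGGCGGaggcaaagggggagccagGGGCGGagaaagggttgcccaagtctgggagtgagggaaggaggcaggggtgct
MET: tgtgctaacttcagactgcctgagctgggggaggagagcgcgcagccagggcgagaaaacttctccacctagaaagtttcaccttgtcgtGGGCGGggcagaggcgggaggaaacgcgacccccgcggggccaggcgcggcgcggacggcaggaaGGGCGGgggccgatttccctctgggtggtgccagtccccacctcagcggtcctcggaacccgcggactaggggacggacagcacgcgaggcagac
FGFR3: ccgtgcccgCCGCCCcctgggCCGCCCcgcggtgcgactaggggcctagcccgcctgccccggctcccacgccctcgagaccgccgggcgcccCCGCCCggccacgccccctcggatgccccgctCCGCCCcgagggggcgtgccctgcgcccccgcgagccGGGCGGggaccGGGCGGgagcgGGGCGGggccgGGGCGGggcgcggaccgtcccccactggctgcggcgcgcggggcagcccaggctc
EPHA2: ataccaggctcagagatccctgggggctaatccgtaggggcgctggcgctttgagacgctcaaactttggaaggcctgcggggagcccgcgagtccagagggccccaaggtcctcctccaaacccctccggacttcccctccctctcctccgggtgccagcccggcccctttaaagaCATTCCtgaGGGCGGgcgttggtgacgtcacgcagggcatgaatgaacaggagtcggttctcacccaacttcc

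The windows differ in base composition. FGFR3 had a GC content of 86.8% with 40 CpG pairs and 8 GC boxes, against a median of 58% and 11 CpG pairs over 34788 windows of the same length. AXL had, at the start shown, a GC content of 64.4% but 4 CpG pairs, with 2 GC boxes and 1 E-box. The window of its other start, not shown, had 54.4%, 13 CpG pairs and 1 TEAD element, without a GC box or E-box. Which start these lines use was not tested. MET had 68.4%, 24 CpG pairs and 2 GC boxes, and EPHA2 had 63.2%, 15 CpG pairs, 1 GC box and 1 TEAD element. Of all windows 42.6% held a GC box, 6.59% the AP-1 element, 17.5% the E-box and 11.9% the TEAD element. No AP-1 match lay in the 4 windows shown, which says only that these letters are not there.

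The libraries were similar in depth and carried the markers of their tissue. From the step size of low values, 1 RPKM over 1 kb was worth between 48.6 (SA) and 53.9 reads (DLD1). Of 7 colorectal epithelial markers 6 reached 1 RPKM, with sums of 1392 (SA) to 2345 RPKM (METS). The epithelial cadherin CDH1 was high in all 4 lines (94.47 to 115.27 RPKM), and the mesenchymal filament VIM stood at 0.18, 12.48, 12.19 and 0.22 RPKM, so the lines labelled mesenchymal carried both. None of 7 fibroblast and 4 endothelial markers reached 1 RPKM, with sums between 0.16 and 0.49 RPKM, and DCN, THY1, CDH5 and KDR are listed at 0. Of 5 blood cell markers CD14 alone reached it, in METS (1.36 RPKM), while PTPRC, CD3E and HBB are listed at 0. A line's library has no replicate, so no difference between 2 lines can be set against the spread between cultures.

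EPHA2, a receptor for membrane-bound ephrins, was the most abundant member in every line, followed by MST1R, MET, ERBB2, ERBB3 and EGFR when averaged over the 4 libraries. FGFR3, FGFR2, FGFR4 and AXL came last, with means between 0.957 and 1.55 RPKM. The ranges over lines did not overlap between EPHA2 and MST1R, ERBB2 and ERBB3, ERBB3 and EGFR, or EGFR and FGFR3. They did overlap between MST1R and MET, between MET and ERBB2, and between each neighbouring pair among the lowest 4, so the order there is not fixed. MET ranked the second of the members in SA and SPH, the fourth in DLD1 and the fifth in METS. AXL was the lowest member in DLD1 and METS and the seventh in SA and SPH, where FGFR3 was the lowest.

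**Figure D1:**
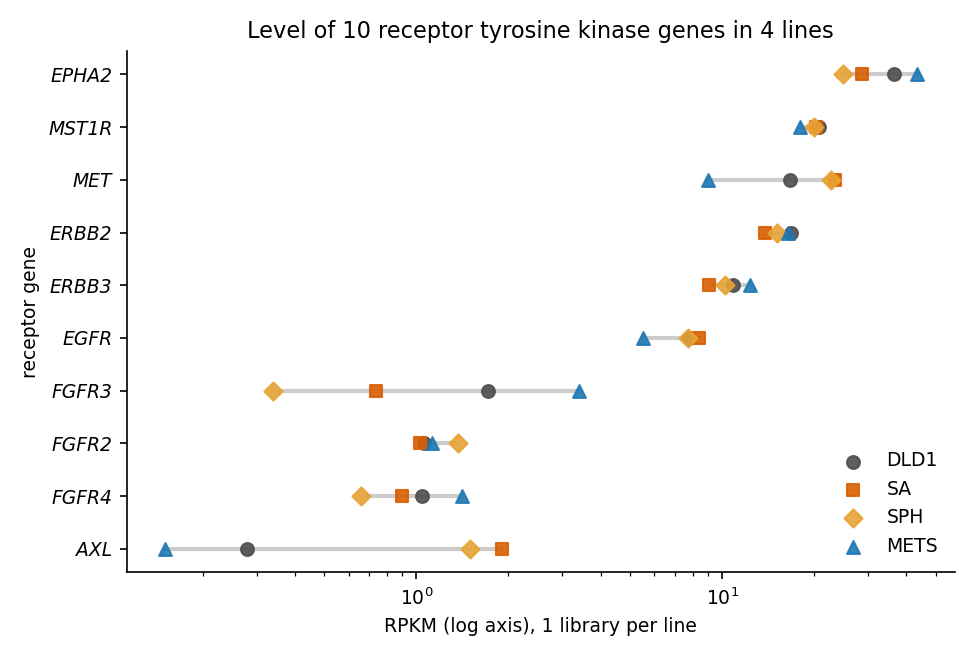
Level of the 10 receptor genes in RPKM on a log axis, with 1 point per line and a grey bar from the lowest to the highest line. AXL and FGFR3 span the widest ranges, 12.7-fold and 10.0-fold, and MST1R the narrowest, 1.15-fold.

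Against all receptor tyrosine kinases the members were a mixed group in level. Of 58 such genes on the full list, the 10 members held 46.2%, 45.3%, 44.0% and 48.9% of the summed RPKM. Summed over all 58, the level was 245.5, 238.6, 237.4 and 226.8 RPKM. By mean level 5 members were in the top 10, together with the collagen receptor DDR1, KIT, the receptor of stem cell factor, EPHB4, PTK7 and EPHB6. AXL, FGFR4, FGFR2 and FGFR3 lay between rank 22 and rank 30 of 58.

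AXL, the receptor of the ligand GAS6, stood at 0.28 RPKM (DLD1), 1.90 (SA), 1.5 (SPH) and 0.15 (METS). SA and SPH were both high and DLD1 and METS both low, with no overlap. In RNA from whole cultures, fewer cells that express a gene and less of its RNA per cell cannot be told apart. Over DLD1 the ratio was 6.79 for SA, 5.36 for SPH and 0.536 for METS, and the log2 folds were 1.18, 0.97 and -0.155. With the estimated step size these values rest on about 78, 476, 409 and 39 reads. Its family relatives TYRO3 and MERTK, named for this comparison with their values seen, did not follow. TYRO3 stood at 7.72, 5.98, 4.70 and 5.09 RPKM and MERTK at 1.74, 1.61, 1.78 and 0.93. AXL thus made up 20% of the summed level of this family in SA and 18.8% in SPH, against 2.87% in DLD1 and 2.43% in METS, and TYRO3 was the most abundant of the family in all 4 lines.

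MET, the receptor of hepatocyte growth factor, stood at 16.61 RPKM (DLD1), 23.33 (SA), 22.68 (SPH) and 8.97 (METS). The mesenchymal lines were highest and close to each other, DLD1 lay between, and METS was lowest. The log2 folds against DLD1 were 0.47 in SA, 0.43 in SPH and -0.82 in METS, so that the distance of METS from DLD1 was the larger. Its close relative MST1R, the receptor of macrophage-stimulating protein, stood at 20.71, 20.33, 20.01 and 18.02 RPKM, the flattest profile of the members. MET therefore exceeded MST1R in SA and SPH and lay below it in DLD1 and METS, at 44.5%, 53.4%, 53.1% and 33.2% of the pair's sum.

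FGFR3, which binds fibroblast growth factors, stood at 1.72 RPKM (DLD1), 0.74 (SA), 0.34 (SPH) and 3.41 (METS). The epithelial lines were both above the mesenchymal lines, but lines of the same class were far apart. METS was 1.98 times DLD1, SA 0.43 times and SPH 0.198 times, with log2 folds of 0.70, -0.645 and -1.02. About 449, 174, 87 and 830 reads stand behind the values in DLD1, SA, SPH and METS. FGFR4 followed the same order of lines at 1.04, 0.90, 0.66 and 1.41 RPKM, over a narrower range of 2.14-fold. FGFR2 stood at 1.06, 1.03, 1.37 and 1.12 RPKM, with the mesenchymal lines at either end. FGFR2 is known for an epithelial and a mesenchymal splice form, which a value per gene cannot separate.

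FGFR1, which is no member but completes the family, stood at 3.09, 3.20, 2.75 and 3.03 RPKM. It was the most abundant of the 4 FGF receptors in DLD1, SA and SPH, whereas FGFR3 was so in METS. FGFR3 held 38% of the summed level of the 4 in METS, 24.9% in DLD1, 12.6% in SA and 6.64% in SPH.

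EPHA2 stood at 36.42 RPKM (DLD1), 28.63 (SA), 24.87 (SPH) and 43.43 (METS). Both mesenchymal lines were below both epithelial ones, SPH being lowest and METS highest, which is the order seen for FGFR3 and FGFR4. The log2 folds against DLD1 were -0.337, -0.533 and 0.25 in SA, SPH and METS. EPHA2 made up 55.6% of the summed level of the 14 EPH receptors in METS, 45.5% in DLD1, 38.8% in SA and 33.5% in SPH. With MET high where EPHA2 was low, the ratio of MET to EPHA2 was 0.815 in SA and 0.912 in SPH against 0.456 in DLD1 and 0.207 in METS.

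The ERBB receptors spanned 1.22-fold (ERBB2) to 1.52-fold (EGFR) between the lowest and the highest line. ERBB2, which has no known ligand of its own and pairs with the others, stood at 16.83, 13.81, 15.07 and 16.44 RPKM, the mesenchymal lines lying just below. ERBB3, a neuregulin receptor with a weak kinase that relies on its partner, stood at 10.89, 9.05, 10.25 and 12.35 RPKM, in the same class order. EGFR stood at 7.78, 8.38, 7.73 and 5.50 RPKM, with METS apart on the low side and SPH level with DLD1. ERBB4 is listed at 0 in all 4 lines. ERBB2 made up 44.2% to 47.9% of the family's summed level in every line, while the share of EGFR was 26.8% in SA, 23.4% in SPH, 21.9% in DLD1 and 16% in METS. In GENCODE 29, 5.5% of the exon bases of ERBB2 overlap MIEN1 on the opposite strand, and whether counting used strand is not given in the sources used here.

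**Figure D2:**
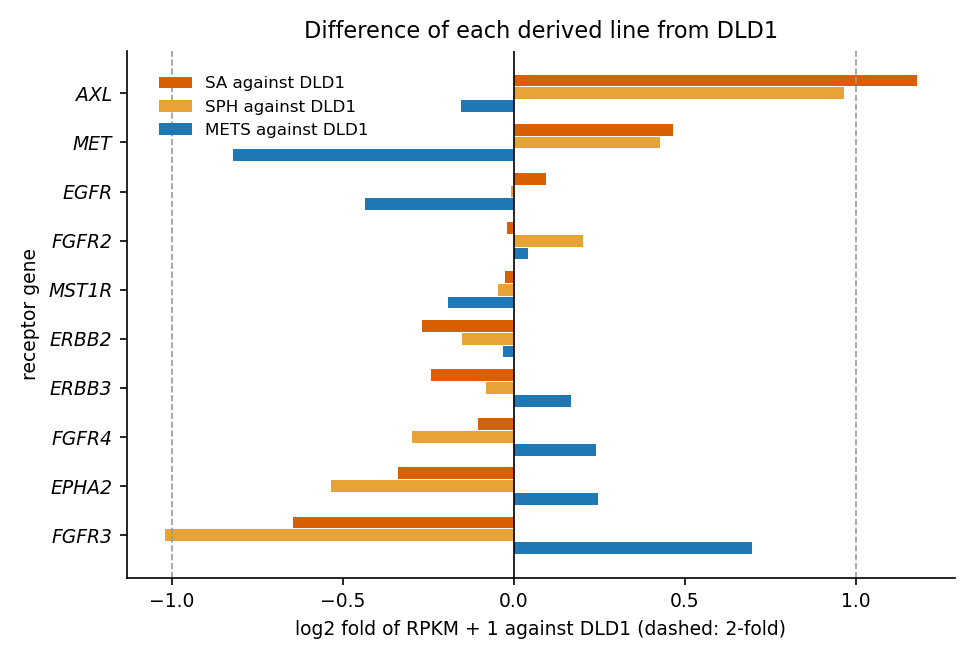
Log2 fold of RPKM + 1 of SA, SPH and METS against DLD1 for each receptor, with dashed lines at 2-fold. AXL passes 2-fold in SA (1.18) and FGFR3 in SPH (-1.02), and for AXL, MET, FGFR3, FGFR4, EPHA2 and ERBB3 the bar of METS points away from those of SA and SPH.

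Counted over the members, few differences reached 2-fold on the log2(RPKM + 1) scale. AXL did so in SA, where 0.677% of 11367 genes were at least 2-fold from DLD1 (0.44% higher and 0.238% lower), and FGFR3 did so in SPH, where 1.26% of 11446 genes were (0.716% higher and 0.542% lower). In METS 0 of 9 members of at least 1 RPKM in the higher library did, against 1.42% of 11275 genes (0.523% higher and 0.896% lower). SA, SPH and METS are all set against the same DLD1 library.

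Between the classes, the values of SA and SPH did not overlap those of DLD1 and METS for 7 of 10 members, as for 37.8% of all genes tested. AXL and MET were higher in SA and SPH, as were 24.7% of the 11262 tested genes, those with 1 RPKM or more in 2 or more libraries. FGFR3, FGFR4, EPHA2, ERBB2 and ERBB3 were lower, as were 13.1% of those genes. The class log2 folds, mesenchymal minus epithelial, ran from -1.18 for FGFR3 to 1.15 for AXL, with 0.86 for MET and -0.559 for EPHA2. Without METS the class fold of MET was 0.447 and that of EGFR 0.044 in place of 0.26, and without DLD1 they were 1.27 and 0.477. The small class folds of FGFR2 (0.07) and MST1R (0.059) changed sign when 1 library was left out, to -0.042 for FGFR2 without SPH and to -0.036 for MST1R without METS. The median over the members was -0.067, against 0.038 over all genes tested. In the class test over all genes (limma-trend, Benjamini-Hochberg adjusted p under 0.05) 0.355% of genes were called (0.32% higher and 0.0355% lower in the mesenchymal lines, and 0.373% without trend). The results of that test for the members are not given, because the members were chosen with this contrast known.

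METS was at the edge of the 4 lines for most members. It was highest for FGFR3, FGFR4, EPHA2 and ERBB3 and lowest for AXL, MET, MST1R and EGFR, which makes 8 of 10. Over all genes tested METS was highest for 23.8% and lowest for 39.4%, or at either edge for 63.2%.

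The ligands of these receptors were dominated by those of the ERBB family. Of 37 ligand genes matched 12 reached 1 RPKM. Of the 12, 0 passed the class test (limma-trend) and 0 passed without trend, against 0.355% and 0.373% of all genes tested. At an unadjusted p under 0.05 (limma-trend) there was 1, where 8.65% of all genes were. Amphiregulin, AREG, a ligand of EGFR, stood at 95.50 RPKM (DLD1), 72.57 (SA), 69.70 (SPH) and 146.77 (METS) (class log2 fold -0.727, adjusted p = 0.39, limma-trend). Epiregulin, EREG, which binds EGFR and ERBB4, stood at 99.83, 88.32, 92.07 and 131.36 RPKM. HBEGF, also of this family, stood at 1.95, 1.76, 1.73 and 2.97 RPKM. METS was highest for these 3 ligands and, at 19.66 RPKM, for TGFA (17.39, 16.17 and 15.35 in DLD1, SA and SPH). Betacellulin, BTC, the other ERBB ligand above the minimum, went the other way at 2.4, 2.74, 2.6 and 1.77 RPKM, with METS lowest. TGFA and BTC were named with their values seen. The ephrin EFNA5 stood at 1.51, 1.49, 1.20 and 2.30 RPKM.

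Ligands of the other members were named for their receptors with their values seen. GAS6, the ligand of AXL, stood at 26.89, 21.41, 27.89 and 22.38 RPKM, in an order unlike that of AXL. PROS1, a ligand of TYRO3 and MERTK, was highest in METS at 10.25 RPKM, against 5.15 in DLD1, 6.86 in SA and 5.64 in SPH. EFNA1, an ephrin that binds EPHA2, stood at 11.33, 8.29, 12.48 and 9.32 RPKM. HGF, the ligand of MET, is listed at 0.01 RPKM in DLD1 and at 0 elsewhere, and MST1, that of MST1R, stood between 1.11 and 1.29 RPKM. Of the FGFs FGF18 alone reached 1 RPKM, from 1.27 in SPH to 2.23 in METS. FGF20 was under that minimum and not tested, at 0.16, 0.83, 0.92 and 0.09 RPKM, the mesenchymal lines being the higher.

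Enzymes that process the ligands, with their inhibitors, held no call. None of 8 tested passed the class test (limma-trend), against 0.355% of all genes tested, and 0 passed without trend. At an unadjusted p under 0.05 (limma-trend) there was 1, or 12.5%, against 8.65% of all genes tested. The median class log2 fold was -0.112. SPINT1, an inhibitor of the proteases that activate HGF, stood at 99.25, 69.29, 78.15 and 88.24 RPKM, and the related SPINT2 at 114.51, 94.93, 102.29 and 114.99. Both were lower in the mesenchymal lines without overlap, as were 13.1% of all genes tested. The convertase FURIN stood at 21.75, 15.16, 18.71 and 19.47 RPKM and the inactive rhomboid RHBDF2, which helps to mature the shedding protease ADAM17, at 2.73, 2.93, 3.64 and 2.20.

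Co-receptors lay to both sides of 0 between the classes. Of 7 tested none passed the class test (limma-trend), against 0.355% of all genes tested, and 0 passed without trend. At an unadjusted p under 0.05 (limma-trend) there were 5, with 3 higher and 2 lower in SA and SPH. That is 71.4% of this short list, against 8.65% of all genes tested. The list was chosen with earlier results of these data known, so this share is no test of an excess. CD44, whose variants are partners of MET, stood at 4.37 RPKM (DLD1), 5.84 (SA), 5.60 (SPH) and 1.36 (METS) (class log2 fold 0.92, adjusted p = 0.558, limma-trend). Without METS its class fold was 0.323, and without DLD1 it was 1.51. The order of the 4 lines was that of MET, and the log2 fold of METS against DLD1 was -1.19, the 1 difference of at least 2-fold among 93 pathway genes measured in that pair. The semaphorin receptor PLXNB1, also a partner of MET, stood at 6.29, 8.67, 9.51 and 7.0 RPKM. The heparan sulfate proteoglycans SDC4 and GPC1, which hold FGFs for their receptors, were lower in SA and SPH, at 33.67, 25.26, 23.23 and 41.53 RPKM for SDC4 and 26.89, 19.69, 18.05 and 25.61 for GPC1. SDC4 thus had the order of lines seen for EPHA2 and FGFR3. The klothos KL and KLB, co-receptors of endocrine FGFs, did not exceed 0.10 RPKM.

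Adaptors and first effectors mostly lay near 0 between the classes. Of 24 tested 0 passed the class test (limma-trend), against 0.355% of all genes tested, and 0 passed without trend. The median class log2 fold was 0.024. At an unadjusted p under 0.05 (limma-trend) there was 1, or 4.17%, against 8.65% of all genes tested. GRB2 stood between 24.44 and 27.42 RPKM. GRB10, an adaptor that restrains insulin-type receptors, was the farthest from 0, at 4.76 RPKM (DLD1), 4.26 (SA), 2.13 (SPH) and 8.72 (METS) (class log2 fold -0.88, adjusted p = 0.534, limma-trend). The related GRB14 stood at 1.59, 1.75, 1.22 and 2.62 RPKM. The kinase SRC stood at 6.78, 5.21, 5.88 and 6.99 RPKM and the exchange factor SOS2 at 1.55, 1.82, 1.98 and 1.61. Each was without overlap between the classes, as were 37.8% of all genes tested, and both were named for their class difference.

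Among genes of feedback and receptor turnover, 0 of 24 passed the class test (limma-trend), and 0 passed without trend. At an unadjusted p under 0.05 (limma-trend) there were 3, or 12.5%, against 8.65% of all genes tested. SPRY4, a Sprouty protein that dampens ERK signalling, stood at 4.18 RPKM (DLD1), 5.41 (SA), 5.86 (SPH) and 2.97 (METS) (class log2 fold 0.55, adjusted p = 0.399, limma-trend). ERRFI1, an inhibitor of EGFR, stood at 63.99, 52.08, 58.68 and 80.31 RPKM, highest in METS like AREG and EREG. The receptor phosphatase PTPRG stood at 2.67, 2.07, 1.39 and 3.55 RPKM and the docking protein DOK4 at 9.37, 9.83, 11.47 and 7.23. The related Sprouty gene SPRY2, named with its values seen, lay between 5.31 and 6.61 RPKM.

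The 48 other receptor tyrosine kinases held no call either. Of 20 tested 0 passed (limma-trend), against 0.355% of all genes tested, and 0 passed without trend. At an unadjusted p under 0.05 (limma-trend) there were 4, with 3 higher and 1 lower. That is 20% of the 20, against 8.65% of all genes tested. The other 28 stayed under 1 RPKM in every line. EPHB2, a crypt receptor, stood at 7.60 RPKM (DLD1), 10.11 (SA), 11.95 (SPH) and 6.46 (METS) (class log2 fold 0.58, adjusted p = 0.322, limma-trend). EPHB6, which lacks kinase activity, stood at 11.36, 12.84, 13.23 and 5.33 RPKM, and EPHA4 at 0.49, 1.38, 1.30 and 0.71. These 3 ephrin receptors were higher in both mesenchymal lines, as were 24.7% of all genes tested. EPHA1, named with its values seen, was lower in both like EPHA2, at 7.48, 5.06, 5.99 and 7.21 RPKM (class log2 fold -0.358, adjusted p = 0.489, limma-trend). EPHA10, EPHB3 and EPHB4 had class log2 folds between 0.001 and 0.063. LMTK3 was lower at 4.34, 1.93, 3.39 and 3.57 RPKM. The median class log2 fold of the 20 was 0.044.

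Over all 6 lists of pathway genes, 0 of 95 genes tested passed the class test (limma-trend). Of all genes tested 0.355% passed, so 0 calls do not set these lists apart. An unadjusted p under 0.05 (limma-trend) was found for 15, 7 higher and 8 lower. That is 15.8% of the 95, against 8.65% of all genes. The lists were chosen with earlier results of these data known, so this share and those of the single lists are a description and no test of an excess. Without the DLD1 library, which leaves METS alone as the epithelial class and assumes that it varies like the others, EPHB6, AREG, CD44, SDC4 and SPRY4 passed, in a fit that called 305 genes in all against 40 with every library. These p-values set the difference between the classes against the spread of lines within a class, which limma draws in part from other genes. They do not measure the spread between repeated cultures, since no culture was repeated.

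**Figure D3:**
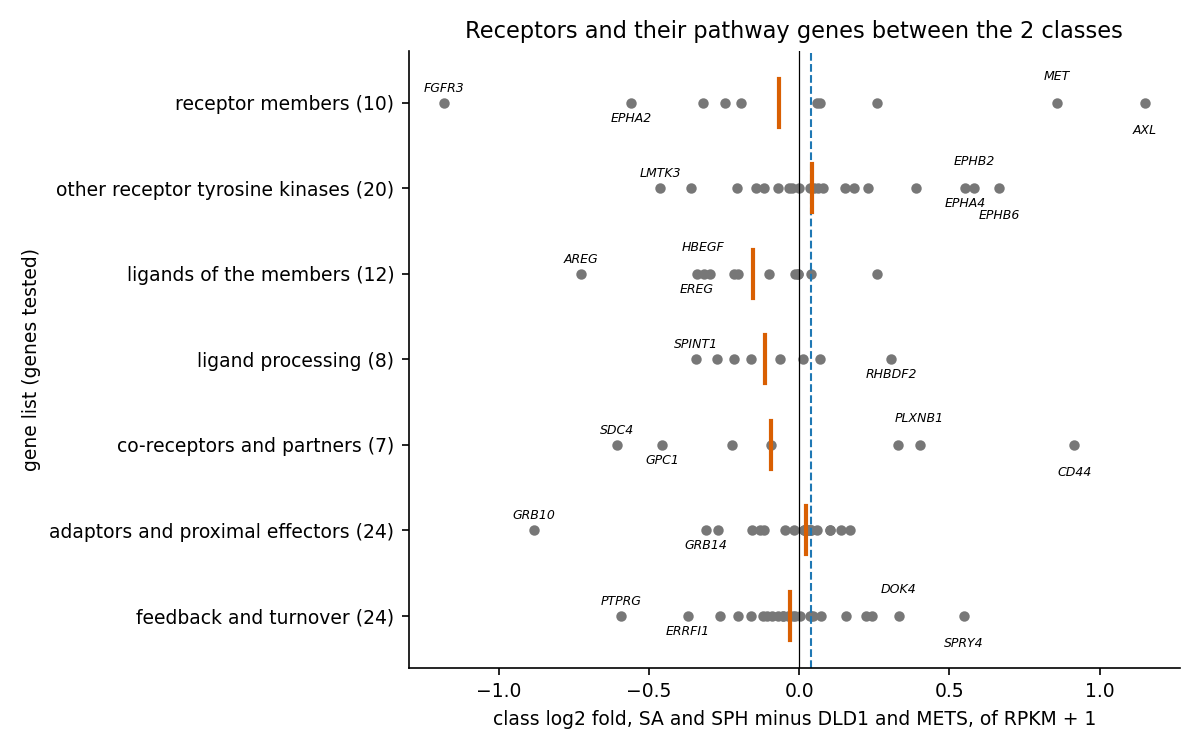
Class log2 fold of RPKM + 1, mean of SA and SPH minus mean of DLD1 and METS, with 1 point per tested gene in each list, orange bars at the list median and a dashed line at the median of all genes (0.038). The list medians lie between -0.152 (ligands) and 0.044 (other receptors), while single genes of most lists lie far to either side.

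The genes most like AXL over the 4 libraries were found by the distance between profiles of log2(RPKM + 1), each centred on its mean, over 10881 genes. ELOVL5, a fatty acid elongase, was nearest (distance 0.128), at 0.01, 1.51, 1.21 and 0.00 RPKM. The reductase DHRS2 (0.11, 1.55, 1.46 and 0.06 RPKM), the claudin CLDN11 (0.06, 1.56, 1.38 and 0.07), the retinol transporter STRA6 (0.01, 1.39, 1.29 and 0.00) and the sulfotransferase CHST11 (0.03, 1.41, 1.40 and 0.02) came next. All 5 were low in both epithelial lines, and AXL had the highest value of the 6 genes in DLD1. At such low values the added 1 hides differences in ratio, and the distance was not computed with another pseudocount. The nearest member was MET, at a distance of 0.568.

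Nearest to FGFR3 were the trypsinogen pseudogene PRSS3P2 (distance 0.155, at 2.29, 1.31, 0.64 and 5.06 RPKM), the protease inhibitor SLPI (17.18, 12.94, 8.42 and 28.38) and mesothelin, MSLN (1.67, 0.84, 0.18 and 3.66). PRSS3P1 (2.32, 1.66, 0.53 and 4.90 RPKM) and the glycogen phosphorylase PYGL (4.4, 3.33, 2.46 and 8.13) followed. PRSS3P1 and PRSS3P2 have close copies, so their reads may be shared. The nearest member was EPHA2, at a distance of 0.711. Profiles over 4 libraries have few distinct shapes, and the likeness is a description.

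**Figure D4:**
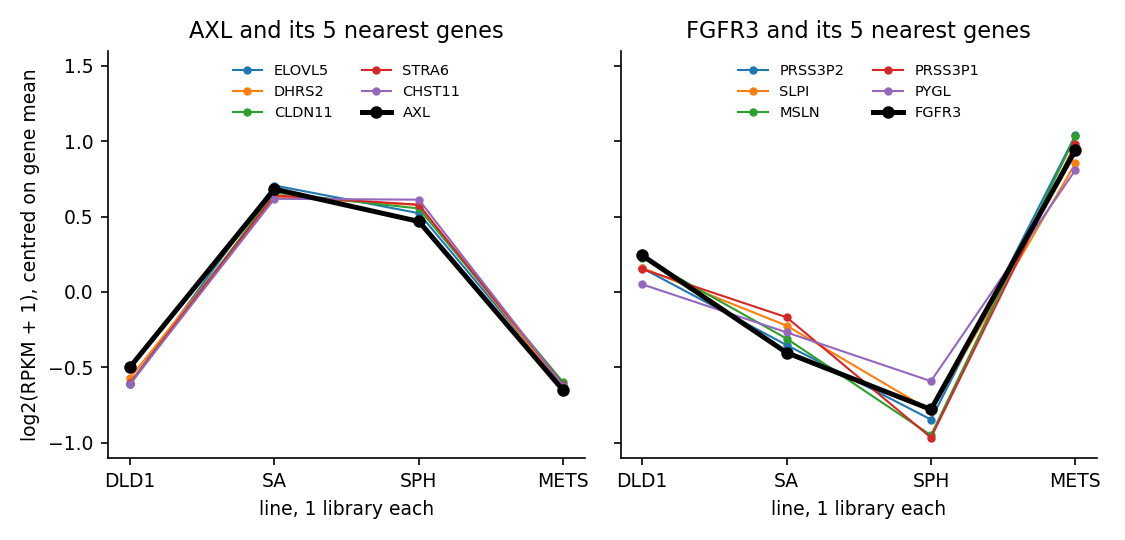
Log2(RPKM + 1) centred on each gene's mean in the 4 lines, for AXL (left) and FGFR3 (right) in black and the 5 nearest genes of each in colour, with segments joining the points of 1 gene. The AXL group is high in SA and SPH alone, and the FGFR3 group runs from METS, the highest, over DLD1 and SA to SPH.

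The genes next to AXL, FGFR3 and MET on the chromosome had other orders of the lines than these receptors, while 1 neighbour each of EPHA2 and ERBB2 had their class order. CYP2S1 and HNRNPUL1, the neighbours of AXL on chromosome 19, stood at 12.11, 8.10, 8.99 and 4.91 RPKM and at 58.02, 55.34, 57.52 and 49.09 RPKM. Next to FGFR3 on chromosome 4, TACC3 stood at 29.22, 29.43, 25.78 and 22.67 RPKM and LETM1 between 16.18 and 18.40. CAV1, beside MET on chromosome 7, was highest in DLD1 (8.54 RPKM against 5.77, 5.34 and 4.24 in SA, SPH and METS), and CAPZA2 on the other side lay between 13.31 and 15.11 RPKM. Beside EPHA2 on chromosome 1, FAM131C stood at 1.78, 1.58, 2.48 and 1.42 RPKM and ARHGEF19 at 1.69, 1.39, 1.38 and 1.98. ARHGEF19 had the class order of EPHA2. On chromosome 17 PGAP3, beside ERBB2, stood at 8.09, 6.66, 7.02 and 7.5 RPKM, with the class order of the receptor, and GRB7 on the other side at 8.91, 6.36, 8.8 and 7.72. PGAP3 shares 194 exon bases with ERBB2 on the opposite strand, so their reads may not be separate. MIEN1, which also overlaps ERBB2, stood at 12.5, 9.87, 14.88 and 15.97 RPKM, without that class order. The neighbours of EGFR were SEC61G (32.08 to 41.76 RPKM) and LANCL2 (3.63 to 4.47), and those of ERBB3 RPS26 (34.53 to 37.14) and PA2G4 (107.15 to 118.13). Those of MST1R were CAMKV (at most 0.02 RPKM) and MON1A (0.83 to 1.59), those of FGFR2 WDR11 (6.04 to 6.87) and ATE1 (4.99 to 6.64), and those of FGFR4 ZNF346 (3.01 to 3.7) and NSD1 (4.47 to 5.56).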

How the data were processed

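RNA was measured in 4 libraries, 1 per line. The authors deposited a single table of values per gene, given to 2 decimals. No label or header names the unit of these deposited values, and they are taken as RPKM because they are not whole and, multiplied by gene length in kb, sum to between 913210 and 924096 in each line. Per the submitters' processing notes the genome was hg19. The sources used here do not give the aligner, the counting tool, the annotation or the use of strand. Values were used as log2(RPKM + 1). Depth was estimated from the common step of low values among genes between 200 and 500 bases in exon length (GENCODE 29), and covers counting error alone.

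Classes were compared by limma-trend (limma 3.58.1 in R 4.3.3), checked on simulated data, in genes that reached 1 RPKM in 2 libraries or more, with p-values adjusted after Benjamini and Hochberg. Each derived line was set against DLD1 by a 2-fold rule without a test, in genes of 1 RPKM or more in the higher library. The settings varied were the pseudocount (0.1 and 5), the filter (none, and 5 RPKM), the scaling (median of ratios), the trend, and each library left out in turn. The members, lists and motifs were chosen with earlier results of these data known. Named genes are the members, any call and up to 4 genes per list by class difference, the 5 nearest genes to AXL and FGFR3, and the neighbours of members. Outside this rule, family relatives, ligands, co-receptors, adaptors, Sprouty genes and lineage markers were named for their role after their values were seen. Of 159 pathway genes 157 matched by name. Neighbours come from the RefSeq table of GRCh38.p14, used for names and order only. Python 3.11.15 with pandas 2.3.3 was used.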

Additional observations from a re-analysis of the deposited data

How the results depend on the processing

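Under a pseudocount of 0.1 or 5 and median-of-ratios scaling, all 40 member differences (10 genes, 3 lines against DLD1 and the classes) kept their sign. Sizes moved by 0.211 or more on the log2 scale only among differences of AXL, FGFR3 and FGFR4. That limit is the SD of the log2 fold between SA and SPH over genes. With 1 library left out the class folds of the other 8 members kept their sign too, while those of FGFR2 (-0.042 without SPH) and MST1R (-0.036 without METS) did not. Without METS the class fold was 0.183 for EPHB6 (0.67 with all libraries) and -0.42 for AREG (-0.727), and for GRB10 (-0.883) it was -0.505 without METS and -0.508 without SPH. The AXL fold of SA over DLD1 ran from 0.386 to 2.4 (log2) and the FGFR3 fold of SPH from -2.05 to -0.332.

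The class test called 40 genes, against 26 with a pseudocount of 0.1, 5 with a minimum of 5 RPKM and 0 with no filter. Leaving out 1 library gave 5 to 305 calls, with 5 without SA, 6 without SPH and 305 without DLD1. Without 1 library the calls ran from 0 to 1 among other receptors, ligands and feedback genes and from 0 to 2 among co-receptors, in each case above 0 only without DLD1, and were 0 among adaptors and ligand processing genes. Genes at least 2-fold from DLD1 numbered 77 in SA, with 211, 12 and 29 under pseudocounts of 0.1 and 5 and the 5 RPKM minimum. In SPH they numbered 144, with 350, 24 and 61, and in METS 160, with 368, 31 and 88. The cause was not tested. No paired analysis was possible because each line has 1 library. Values under 0.1 RPKM rest on few reads.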
